A study of Schizosaccharomyces pombe with 6 samples.

Results

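The 8 genes described here are annotated, some only by prediction, as enzymes assigned here to the methionine and S-adenosylmethionine (SAM) cycle. They are genes of fission yeast, *Schizosaccharomyces pombe*, out of 6345 genes in the deposited table. They were chosen by their place in the cycle, at a time when the deposited log2 fold changes between the strains were known, and those fold changes are not used here. RNA was sequenced from 3 *mkt1Δ* libraries (strain EHB2196) and 3 wild-type libraries (strain EHB7), all from exponentially growing cells in the rich medium YES at 32°C. The *mkt1Δ* strain is h+ and carries mkt1Δ::NatR, a replacement of *mkt1* by a nourseothricin resistance cassette. Both strains are h+ and share the alleles ade6-210, leu1-32 and ura4-D18 and an ade6+ reporter inserted in the outer repeats of the first centromere, otr1R(Sph1):ade6+. Mkt1 is a post-transcriptional regulatory factor. The study examined its role in silencing by RNA interference and in the establishment of repressive heterochromatin. RNA sequencing was the part that looked for expression changes in the absence of Mkt1.

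The measurement analysed is 1 value per gene, given by the authors over the libraries of both strains. The paper describes it as average expression in CPM (read counts scaled to library size), on a log2 scale. The value is written here as mean log2 CPM and is read as the log2 of an average CPM, not as an average of log2 values. It is therefore a level of the gene in the experiment as a whole, and no difference between *mkt1Δ* and wild-type cells is given. Ratios between genes are likewise over both strains together and need not hold within either strain. No value of a single library entered the analysis, which leaves library depth unknown and every level without a replicate error. The deleted gene shows what a mean over both strains does. *mkt1* (SPAC139.01c) has a mean log2 CPM of 6.83 although 3 of the 6 libraries come from the deletion strain, so this column cannot check the labels.

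In the cycle, methionine is joined to adenosine to give SAM, the methyl donor of most methyltransferases. Once SAM has given up its methyl group it becomes S-adenosylhomocysteine (SAH), which inhibits methyltransferases and is split into adenosine and homocysteine. Homocysteine is then methylated back to methionine with a methyl group carried by folate. New homocysteine enters from homoserine, which is first acetylated and then combined with sulphide. The table's own descriptions of the 8 genes name these enzymes, and 3 of the 8 are written by their identifiers.

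The levels of the cycle genes were far from even. Methionine synthase, SAH hydrolase and SAM synthetase were among the most abundant mRNAs of the table, whereas *met6* lay just above the upper quartile of genes without an SPNCRNA identifier, the folate reductases and SPAC57A7.07c lay between their quartiles, and the predicted methionine synthase reductase lay below the lower quartile. The median of the 8 mean log2 CPM values was 7.19, beside 6.19 over the 5059 genes without an SPNCRNA identifier (the prefix of annotated non-coding RNAs) and 5.79 over all 6345 genes. Of the 8 genes, 6 lay above the median of the 5059 genes and 4 above their upper quartile of 7.25. Per kilobase of coding sequence the median of the 8 was 6.62, beside 5.93. On that scale 6 lay above the median and 3 above the upper quartile of 7.24, with *met6* below it at 6.96. Together the 8 genes held 8501 CPM, or 0.850% of the CPM summed over all genes, and the 3 highest supplied 94.1% of the 8501 CPM.

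**Figure D1:**
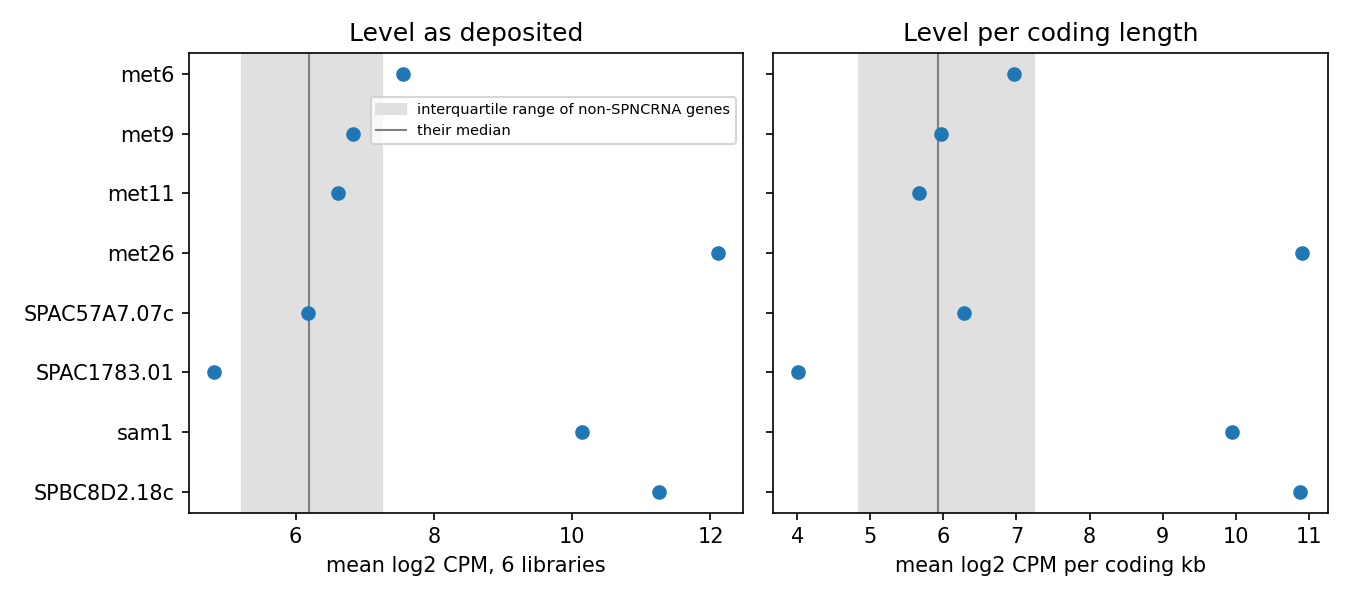
Level of each cycle gene, ordered along the pathway from homoserine (top) to SAH (bottom). Each point is 1 gene, the left panel plots the authors' mean log2 CPM, the right panel plots that value per kilobase of coding sequence, and the grey band and line are the interquartile range and the median of genes without an SPNCRNA identifier. *met26*, *sam1* and SPBC8D2.18c lie right of the band in both panels and SPAC1783.01 left of it.

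The first step is homoserine activation by *met6* (SPBC56F2.11), homoserine O-acetyltransferase, on chromosome II. In budding yeast the name MET6 belongs to methionine synthase, a different enzyme. *met6* had a mean log2 CPM of 7.55, or 188 CPM, and 83.7% of all genes lay at or below it. Because longer mRNAs give more reads, genes are compared with each other below per kilobase of coding sequence. On that scale *met6*, with a coding length of 1506 nucleotides, had a log2 CPM per coding kilobase of 6.96, and 70.6% of protein-coding genes lay at or below it.

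Folate-bound methyl groups are supplied by methylenetetrahydrofolate reductases, which have a pair of genes, both on chromosome I. *met9* (SPAC56F8.10) had a mean log2 CPM of 6.83 and *met11* (SPAC343.10) of 6.61. Their coding lengths are close, at 1812 and 1926 nucleotides. Per coding kilobase the log2 values were 5.97 for *met9* and 5.66 for *met11*, on either side of the median of 5.93 over the 5046 genes with a coding length. The level of *met9* was 1.24 times that of *met11* per coding kilobase, and with no replicate error available it cannot be said whether this small difference exceeds the spread between libraries. Per coding kilobase *met6* stood above *met9* by 0.99 on the log2 scale.

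For the methyl transfer to homocysteine, 2 genes carry a homocysteine methyltransferase annotation, at very different levels. That of SPAC57A7.07c is a prediction that names no methyl donor, so the 2 may not carry out the same reaction. *met26* (SPAC9.09, chromosome I), the homocysteine methyltransferase that makes methionine, was the highest member, with a mean log2 CPM of 12.11 and 4424 CPM. It ranked 11 among all 6345 genes and 10 among those without an SPNCRNA identifier. Per coding kilobase its rank was 153 among the 5046 genes with a coding length. SPAC57A7.07c, a predicted homocysteine methyltransferase, had a mean log2 CPM of 6.18 and 72.4 CPM, almost at the median of genes without an SPNCRNA identifier. The coding sequence of *met26* is the longer, at 2295 nucleotides against 927 for SPAC57A7.07c, and per coding kilobase *met26* remained 24.7 times higher. The log2 values behind that ratio were 10.91 for *met26* and 6.29 for SPAC57A7.07c.

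SPAC1783.01, annotated as a predicted methionine synthase reductase, is named after the mammalian enzyme that reactivates the cobalamin-dependent methionine synthase. Whether its product acts in the fission yeast cycle was not tested, and it is placed here by its annotation only. It was the lowest of the 8 genes, with a mean log2 CPM of 4.82 and 28.3 CPM. Among genes without an SPNCRNA identifier 18.1% lay at or below it, and per coding kilobase, at a log2 value of 4.01, 11.9% did. The level of *met26* was 119 times that of SPAC1783.01 per coding kilobase, the full span of the 8 genes.

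Methionine is converted to SAM by *sam1* (SPBC14F5.05c, chromosome II), S-adenosylmethionine synthetase. *sam1* had a mean log2 CPM of 10.15 and 1133 CPM, with 97.4% of all genes at or below it. Per coding kilobase its log2 value was 9.95, over a coding length of 1149 nucleotides, and its rank was 244 among the 5046 genes with a coding length. The level of *sam1* per coding kilobase was 7.91 times that of *met6*, and that of *met26* was 1.95 times that of *sam1*.

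SAH is split by the adenosylhomocysteinase SPBC8D2.18c (chromosome II). The gene had a mean log2 CPM of 11.26 and 2444 CPM, and it ranked 41 among all genes. Its rank per coding kilobase was 158 among the 5046 genes with a coding length. Per coding kilobase it reached a log2 value of 10.87, which differs from that of *met26* by 0.038, a ratio of 1.03. On the same scale SPBC8D2.18c had 1.90 times the level of *sam1*.

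**Figure D2:**
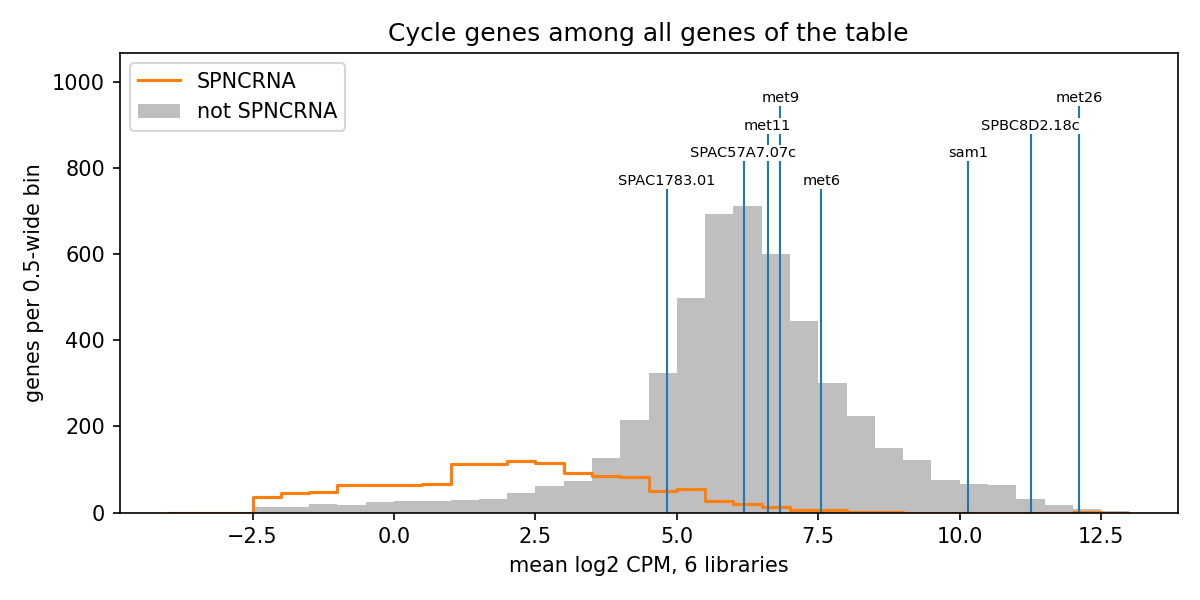
Mean log2 CPM over the 6 libraries (x axis) and the number of genes in each bin (y axis), for genes without an SPNCRNA identifier (grey bars) and SPNCRNA genes (orange line). Blue lines mark the 8 cycle genes, with *sam1*, SPBC8D2.18c and *met26* in the upper tail and the other 5 in or near the main peak.

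Per coding kilobase the order from the highest was *met26*, SPBC8D2.18c, *sam1*, *met6*, SPAC57A7.07c, *met9*, *met11* and SPAC1783.01. The smallest step is that between *met26* and SPBC8D2.18c, and SPAC57A7.07c, *met9* and *met11* also lie close to each other. Without values of single libraries no neighbours in this order can be separated by a test. With the lengths of whole exons, which include the untranslated ends, the rank of each of the 8 genes was as with coding lengths. The ratios between genes did depend on the length used. With exon lengths the ratio of *met26* to *sam1* was 2.52 and that of *met26* to SPAC57A7.07c was 26.2. The ratio of *met26* to SPAC1783.01, which was 119 per coding kilobase, was 199. *met6* stood above *met9* by 0.52 on the log2 scale, against 0.99 per coding kilobase.

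The genes around the cycle were taken from a list of 15, all of which had a row in the table. Per coding kilobase, the 4 one-carbon folate genes had a median log2 value of 7.20. The highest of them was *shm1*, a serine hydroxymethyltransferase gene that loads one-carbon units on folate, at 10.34, close to the 3 highest cycle genes. *shm2*, encoding the other serine hydroxymethyltransferase, had 7.08, *thf1* (C1-tetrahydrofolate synthase) had 7.32, and *ade9*, a further predicted C1-tetrahydrofolate synthase, had 5.17.

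On the way from aspartate to homoserine, *hom2* (aspartate semialdehyde dehydrogenase) and *hom6* (homoserine dehydrogenase) had log2 values per coding kilobase of 9.18 and 8.88. The *met6* step that follows was lower, at 6.96, and so was *met17*, the homocysteine synthase gene that uses the product of Met6, at 6.27. *cys2*, which the table describes as a further predicted homoserine O-acetyltransferase beside Met6, had 5.76. *cys11*, a cysteine synthase gene, had 7.92. *str3*, a siderophore transporter gene listed here only through its symbol, was near the bottom of the table, with a mean log2 CPM of -2.38.

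Among genes whose products use SAM or clear its adenosine, per coding kilobase values ran between 6.72 and 9.46 on the log2 scale. *erg6*, the sterol C-24 methyltransferase gene of ergosterol synthesis, was the highest of these at 9.46. *cho2* and *cho1*, which methylate phosphatidylethanolamine to phosphatidylcholine, had 6.72 and 8.42. *spe2*, whose product decarboxylates SAM for polyamine synthesis, had 7.81. *ado1*, adenosine kinase, which takes up the adenosine released from SAH, had 9.01. All 5 lay below *sam1*.

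**Figure D3:**
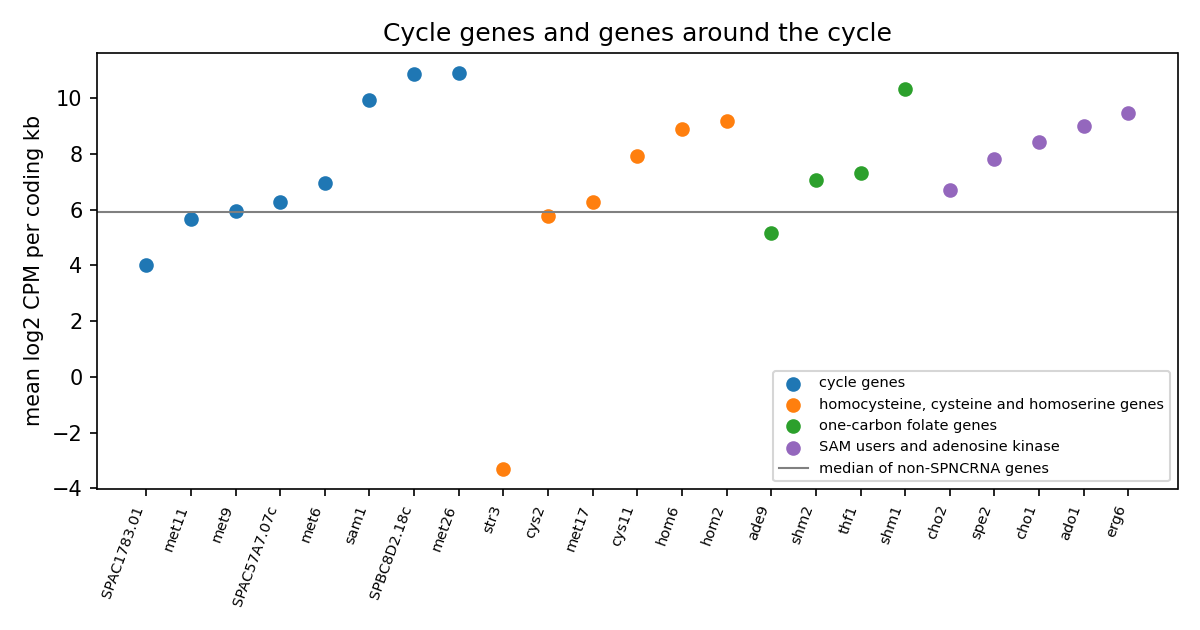
Mean log2 CPM per kilobase of coding sequence (y axis) for the 8 cycle genes (blue) and 15 genes around the cycle in 3 groups, each sorted from low to high, with 1 point per gene. The line is the median of 5.93 over genes without an SPNCRNA identifier, and only *shm1* among the 15 lies above *sam1*. The lowest point, *str3*, is a siderophore transporter gene listed only through its symbol.

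All 8 genes overlap at least 1 other annotated gene on the opposite strand in ASM294v3. How common such overlaps are among all genes was not counted, so this is not given as a trait of the cycle genes. The library kit keeps strand, but whether the counting used strand is not given in the sources used here, so reads from the overlapping stretches are uncertain. The widest opposite-strand overlaps were with non-coding RNAs that have no row in the table. SPNCRNA.6428 covers 76.8% of *met6*, SPNCRNA.2740 covers 76.8% of *met11* and SPNCRNA.6460 covers 58.7% of *sam1*. The only overlap on the same strand was that of *met26* with SPNCRNA.742 (mean log2 CPM 6.53), which covers 1.87% of *met26*. Among overlaps with protein-coding genes, the one that covers most of a member was found for the lowest member, SPAC1783.01, where *vps66* (mean log2 CPM 5.76) covers 39.3% of the annotated gene. *gmh4* covers a smaller stretch of SPBC8D2.18c, *utp14* covers 9.23% of SPAC57A7.07c and *msc1* covers 3.62% of *met11*. SPBC8D2.18c had a mean log2 CPM of 11.26, against 6.20 for *gmh4*. The part of these overlaps in the levels was not tested.

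The protein-coding genes next to the cycle genes differed widely in level. *sam1* lies beside *pgk1* (phosphoglycerate kinase, mean log2 CPM 12.63) on the same strand and *rli1* (8.59) on the opposite strand. *met6* lies beside *ilv5* (11.63), a gene of branched-chain amino acid synthesis, and *alg5* (5.90). *met26*, the highest member, has SPAC9.08c (6.21) and the thiamine transporter gene *thi9* (4.92) on its sides.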

How the data were processed

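Read trimming by the authors used cutadapt 1.8.3, alignment to ASM294v2.30 used STAR 2.5, and gene counting used the union mode of HTSeq 0.6.1. After genes with few reads had been discarded, edgeR 3.12.0 was run. Their deposited table gives, for 6345 genes, a mean log2 CPM over the 6 libraries, which is the only column used. The other 3 columns of numbers hold the authors' own comparison of the strains (log2 fold change, p-value and adjusted p-value) and were not used, so no test was made. There were 0 columns of single libraries.

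Identifiers, coding and exon lengths, neighbours, overlaps and the names of genes other than the 8 members were read from the annotation of ASM294v3. It differs from the authors' build, so no coordinates or sequences are given; 6299 of the 6345 identifiers matched. Coding length was available for 5046 of 5059 genes without an SPNCRNA identifier. Levels per kilobase are log2 CPM minus log2 of the length in kilobases. The function that gives ranks was checked on values of known rank. The genes named are the 8 members, a list of 15 genes around the cycle and *mkt1*. On that list, *str3* stands only through its symbol. Neighbours and overlapping genes were added afterwards. The members and lists were chosen with earlier results of these data known. Alternatives were ranking without SPNCRNA genes, ranking only genes with a mean log2 CPM above 0, each gene left out, and 1 value per step; exon length and ranks per coding kilobase were added after the data were seen. Tools were pandas 2.3.3, numpy 2.4.6 and matplotlib 3.10.9 under Python 3.11.15.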

Additional observations from a re-analysis of the deposited data

How the results depend on the processing

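The median of 7.19 over the cycle genes moved to 8.93 with 1 value per step, where the CPM of genes sharing a step were summed, and to between 6.83 and 7.55 with each gene left out in turn. *met26* and SPAC57A7.07c were counted as 1 step there, by annotation only. Leaving out SPNCRNA genes lowered the share of genes at or below a member by 0.020 to 14.2 percentage points, and keeping only genes with a mean log2 CPM above 0 by 0.0091 to 3.91 points. Among genes without an SPNCRNA identifier, ranking per coding kilobase, added after the data were seen, lowered the share for 7 of the 8 genes, by 1.51 to 17.1 points, and raised it for SPAC57A7.07c, by 8.41 points. No paired analysis was possible because the table holds 1 mean per gene and none of its values belongs to a single library. For the same reason alternatives that need counts (other normalizations, filters on reads, leaving out each library) were not run. The unknown depth limits every value, and small differences between genes cannot be judged.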
